A study of Mus musculus with 5 samples.

Results

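The interferon regulatory factors (IRFs) and STATs measured here were 6 genes, Irf1, Irf3, Irf5, Irf7, Irf9 and Stat2, of 8452 named genes with a value on all 5 arrays. They are every gene whose probes carry a single platform symbol made of Irf or Stat and a number. They were represented by 7 probes, 2 for Irf7 and 1 for each of the others, and all 7 had a value on every array. Stat5b, whose symbol ends in a letter, falls outside this definition and is given with the pathway genes. Other IRF and STAT genes were not analysed here.

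The study followed macrophages grown from bone marrow of C3H/HeJ mice and differentiated in vitro with human CSF-1, which drives growth and survival of macrophages. This strain carries a mutation in Tlr4 that makes its cells respond poorly to bacterial lipopolysaccharide (LPS). Cells were left without LPS (0 h) or given 10 µg per ml of LPS from Salmonella minnesota for 0.5, 2, 7 or 21 h, and each of these 5 groups was measured once. Each two-colour cDNA array set macrophage RNA against RNA of whole C57BL6/J embryos of 17.5 days. The mutation is common to all 5 groups, and no group of LPS-responsive cells was analysed here, so a response through Tlr4 cannot be told apart from a response to anything else in the culture. With 1 array a group, no difference has a replicate check and no test was run. In bulk RNA, fewer cells of a type and less RNA per cell cannot be told apart.

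IRFs bind interferon-stimulated response elements (ISREs) in the promoters of antiviral and inflammatory genes. IRF3 and IRF7 are switched on by phosphorylation after a cell senses nucleic acids or, through the adaptor TRIF, LPS, and they drive the type I interferon genes. Secreted interferon then acts through its receptor and Janus kinases on STAT proteins, among them STAT2, which joins IRF9 in the complex ISGF3, and the Irf7 gene is itself a target of that complex. IRF1 is a product of interferon-gamma signalling, which acts at gamma-activated sites (GAS), and IRF5 acts downstream of MyD88 in the inflammatory program of macrophages.

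The promoters shown are those of Irf7, Irf1 and Stat2, the genes named when the set of members was defined. Each run gives the 250 bases before a start site, from RefSeq in build GRCm38.p6, 5′ to 3′ on the gene's strand, with matches to an ISRE core (GAAA, any 2 bases, GAAA) or a GAS core (TTC, any 3 bases, GAA) on either strand in capitals. The window of Irf7 lies at chr7:141266425-141266674 on the minus strand and holds neither set of letters.
Irf7: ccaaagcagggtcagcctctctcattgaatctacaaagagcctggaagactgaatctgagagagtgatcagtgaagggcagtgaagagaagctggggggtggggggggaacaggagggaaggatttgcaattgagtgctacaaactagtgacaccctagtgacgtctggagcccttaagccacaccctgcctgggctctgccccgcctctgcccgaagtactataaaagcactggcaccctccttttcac
The window of Irf1, upstream of the first of its listed start sites, lies at chr11:53769764-53770013 on the plus strand and holds 1 GAS core, from 90 to 82 bases before the start site.
Irf1: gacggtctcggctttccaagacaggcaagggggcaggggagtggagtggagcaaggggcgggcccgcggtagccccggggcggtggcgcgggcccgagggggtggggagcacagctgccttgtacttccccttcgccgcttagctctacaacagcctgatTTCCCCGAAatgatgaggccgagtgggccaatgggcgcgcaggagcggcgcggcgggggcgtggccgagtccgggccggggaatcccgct
The window of Stat2 lies at chr10:128270248-128270497 on the plus strand and holds 1 ISRE core read on the opposite strand, from 222 to 213 bases before the start site.
Stat2: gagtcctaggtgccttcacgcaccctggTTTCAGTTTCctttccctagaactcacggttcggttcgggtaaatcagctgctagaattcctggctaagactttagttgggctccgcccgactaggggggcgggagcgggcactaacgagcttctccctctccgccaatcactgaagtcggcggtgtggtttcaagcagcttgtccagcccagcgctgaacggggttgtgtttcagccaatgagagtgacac
All 6 genes matched the promoter table, with 8 start sites, and the other windows held no match to either core. Of 32851 promoters of this length, 2.98% held the ISRE core and 7.02% the GAS core. A match is a description of the letters and says nothing of binding in these cells.

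Values are the deposited log ratios, read as base 10 and centred on each array's median over genes, so that 0 is the ratio of the median gene and 0.301 is 2-fold on that reading. Macrophage over embryo was taken as the likely direction, and every sign rests on it. Of 7 measured macrophage markers 5 were at least 2-fold above 0 at 0, 2, 7 and 21 h and 4 at 0.5 h, with list medians from 0.64 to 1.22. Cd68 and Tyrobp were below 0 on all 5 arrays, Cd68 past 2-fold at 2 h (-0.31). Of 10 measured embryo and erythroid markers between 7 and 10 were at least 2-fold below 0, with medians from -1.50 to -0.85. Dcx (0.81, past 2-fold) and Hbb-y (0.28) were above 0 at 0.5 h. The 0.5 h array stood apart: its correlation with the 0 h array was 0.48 across probes, beside 0.75 to 0.85 for the later arrays, and 1104 of its 19828 probe values were missing. Its ratios were also the widest (SD 0.58 across probes, beside 0.32 to 0.42), and those of the 2 h array came next (0.42). The globins, abundant in embryo RNA, had a deposited median of -0.04 on the 0.5 h array with 21 of 53 probes below -1, beside medians from -1.65 to -1.42 and 41 to 44 of 55 probes on the others. Over parts of the probe numbers its values did not follow the other arrays, with a correlation with 0 h of 0.05 around the Irf3 probe and 0.26 around that of Irf5. Whether each 0.5 h value there belongs to the probe in its row cannot be settled from the file, and that holds for every 0.5 h value of Irf3 and Irf5 given here. Correlations around a probe, and values under other scalings, were computed for the 6 members only. The 0.5 h values of all other genes named here were not checked in either way. The markers of other cells had medians from -0.64 to -0.25 for 2 B cell genes, -0.04 to 0.15 for 4 T and NK cell genes, -0.23 to -0.04 for 2 dendritic cell genes, -0.15 to -0.06 for 6 neutrophil genes and -0.74 to -0.25 for 5 fibroblast genes over the 5 arrays. Cd3d, a T cell gene on 1 probe, was higher than at 0 h by 1.14 at 0.5 h and by 0.54 at 7 h, where Irf7 and Irf5 were highest. Gzma, also of the T and NK cell list, was past 2-fold above 0 at 0, 2 and 7 h (0.42, 0.34 and 0.39). Cd3g and Nkg7 were below 0 on all 5 arrays. At 0.5 h the dendritic cell gene Ccr7 (0.52) and the neutrophil genes Ngp (0.41) and Elane (0.36) were past 2-fold above 0. The other measured genes of those lists were below 0 on that array. The part of these markers in the results was not tested.

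**Figure D1:**
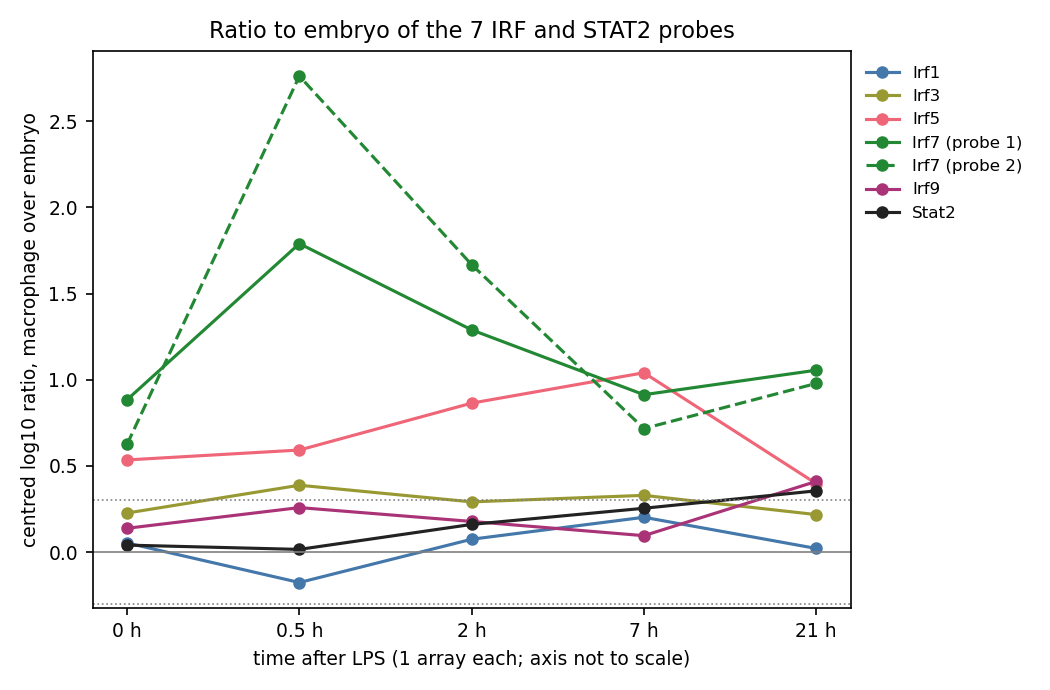
Centred log10 ratio of macrophage over embryo RNA (y axis) on the 5 arrays (x axis, hours after LPS, not to scale) for each of the 7 probes, with 1 array a point and no error bars. Probe 1 of Irf7 is number 1691 and probe 2 number 4312, and dotted lines mark 2-fold. Both Irf7 probes peak at 0.5 h, Irf5 peaks at 7 h, and Stat2 is highest at 21 h.

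Against the embryo, Irf5 and Irf7 stood out. Both were at least 2-fold above it on all 5 arrays, 2 of 6 members, where 2.32% of all genes were. On single arrays 2 members were above it by 2-fold without LPS, where 8.99% of all genes were. None was below it by that much on any array, where 8.9%, 17%, 12.9%, 8.02% and 9.12% of all genes were in the order of the times, so 0 of 6 is near the background. After LPS there were 3 members above it by 2-fold on the 0.5 h array (23.4% of all genes), 2 on the 2 h array (13.4%), 3 on the 7 h array (12.6%) and 4 on the 21 h array (9.67%). The third member at 0.5 and 7 h was Irf3. At 0.5 h it fell short of 2-fold at 0.26 with the arrays scaled to one median absolute deviation, 0.25 after quantile normalization and 0.29 with a running median over probe numbers removed, and at 7 h it stood at 0.24 with that running median removed. Irf3, Irf9 and Stat2 were also above 0 on every array, which with Irf5 and Irf7 makes 5 of 6 beside 22.7% of all genes, though Stat2 at 0.5 h read -0.04 when each gene was taken from its probe of highest ratio and -0.07 with that running median removed. Irf1 was below 0 at 0.5 h, at -0.18, and at 0.00527 with that running median removed. The median ratio of the 6 was 0.18 without LPS and then 0.32, 0.23, 0.29 and 0.38 in the order of the later times, where the median gene is 0 by construction.

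Irf7, the IRF that amplifies the type I interferon response, had the widest course of the 6 on the scaling used here, 1.52 from lowest to highest array beside 0.64 for Irf5. Irf5 was wider under a pair of alternatives, at 0.77 beside 0.63 after quantile normalization and 0.84 beside 0.61 with one median absolute deviation. The first Irf7 probe read 0.88 without LPS and 1.79, 1.29, 0.91 and 1.06 after 0.5, 2, 7 and 21 h. Its second probe read 0.63, 2.76, 1.67, 0.72 and 0.98 in the same order. Both probes put the 0.5 h array first, then 2 h, 21 h, 7 h and 0 h, so their order of the arrays was the same while their heights differed. Averaged over the probes, the ratio was 0.76 ± 0.18 without LPS and 2.28 ± 0.69, 1.48 ± 0.27, 0.82 ± 0.14 and 1.02 ± 0.05 after the 4 times (SD over 2 probes). The gene with the highest ratio being first, Irf7 ranked 58 of 8452 without LPS and 48, 19, 133 and 25 after it.

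The difference of Irf7 from 0 h was 0.91 on the first probe and 2.14 on the second at 0.5 h, and 0.41 and 1.04 at 2 h. Each probe was therefore past 2-fold at both times. The mean difference was 0.72 ± 0.45 at 2 h (SD over 2 probes), 5.29-fold on the base 10 reading and 50th from the top of all genes. By 7 h it was 0.06 ± 0.04, and at the last time 0.26 ± 0.13. Irf7 was the 1 member past 2-fold at both 0.5 and 2 h, as were 2.66% of all genes. In the order of its levels, 0.5 h exceeded 2 h by 0.80 and 2 h exceeded 21 h by 0.46, each beyond the pooled SD between probes of a gene for that pair of arrays (0.48 and 0.22). The steps from 21 to 7 h (0.20 against 0.23) and from 7 to 0 h (0.06 against 0.16) were within it. Between 2 and 7 h Irf7 was lower by -0.66, 76th from the bottom of all genes.

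The height of the early peak, and which array was highest, depended on how the arrays were scaled. Irf7 lies at the upper end of ratios, and the 0.5 and 2 h arrays have the widest ranges. At 0.5 h the mean difference of 1.52 ± 0.87 (SD over 2 probes) became 0.61 with the arrays scaled to one median absolute deviation, 0.22 after quantile normalization and -0.94 with a loess trend on the mean ratio removed. At 2 h the same alternatives gave 0.51, 0.35 and 0.33, all higher than 0 h and past 2-fold. After quantile normalization the ratio of Irf7 was 1.31 at 0.5 h, 1.45 at 2 h and 1.54 at 21 h, so that the last array was the highest, and its difference of 0.44 at 21 h was past 2-fold. Among the 400 probe numbers nearest to each Irf7 probe, the correlation of the 0.5 h array with the 0 h array was 0.74 and 0.68, beside 0.48 over all probes.

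Irf5, an activator of inflammatory cytokine genes in macrophages, had a later course. Its probe read 0.53 without LPS and 0.59, 0.86, 1.04 and 0.40 after 0.5, 2, 7 and 21 h. The array at 7 h was the highest and that at 21 h the lowest. Irf5 was higher than at 0 h by 0.33 at 2 h and by 0.51 at 7 h, 3.21-fold on the base 10 reading and 102nd from the top of all genes, and lower by -0.14 at 21 h. From 7 to 21 h it was lower by -0.64, 171st from the bottom, beyond the pooled SD between probes of 0.23, while the difference of 21 from 0 h was within the 0.19 of that pair.

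No neighbouring pair in the order of Irf5 levels differed beyond that spread, the widest step being 0.27 between 2 and 0.5 h against 0.48. At 0.5 h the difference from 0 h was 0.06, and became -0.26 with one median absolute deviation, -0.34 after quantile normalization and -0.69 with the loess trend removed, the last 2 lower by more than 2-fold. At 2 h the difference was short of 2-fold, at 0.18 with one median absolute deviation, 0.21 after quantile normalization and 0.13 with the loess trend removed, and at 7 h it was 0.299, just under 2-fold, with the loess trend removed. Of 384 probes with neighbouring numbers, 14.3% had the same signs as Irf5 at 2, 7 and 21 h, beside 9.43% elsewhere, and their median difference at 7 h was 0.11. With the running median over probe numbers removed Irf5 stood at 0.39 at 7 h. Among the neighbours of this probe the 0.5 h array had a correlation of 0.26 with the 0 h array.

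Stat2 and Irf9 encode subunits of ISGF3, and both were highest at 21 h. Stat2 read 0.04 without LPS and 0.02, 0.16, 0.25 and 0.36 after 0.5, 2, 7 and 21 h. It was the 1 member with a higher value at each step from 0 to 2, 7 and 21 h, an order that 3.4% of all genes had. Compared with 0 h it was higher by 0.12, 0.21 and 0.31 in that order, the last 2.06-fold on the base 10 reading and 322nd from the top. No single step in its order exceeded the spread between probes, while the difference of 21 from 0 h exceeded the 0.19 of that pair. At 21 h Stat2 was at 0.27 with the running median over probe numbers removed and at 0.295 with the loess trend removed, both under 2-fold.

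Irf9 read 0.14 without LPS and 0.26, 0.18, 0.10 and 0.41 after 0.5, 2, 7 and 21 h. The first 4 arrays lay within 0.16 of each other and the 21 h array was above them all. Its difference of 0.27 at 21 h was short of 2-fold, and passed it at 0.31 with one median absolute deviation and at 0.40 after quantile normalization. It was smaller, at 0.24, with the loess trend removed and at 0.15 with the 0.5 h array as baseline. With the running median over probe numbers removed it was 0.187, under the pooled SD between probes of 0.189. From 7 to 21 h it was higher by 0.31, 451st from the top, where 5.96% of all genes were higher by at least 2-fold. Among the neighbours of the Irf9 and Stat2 probes the 0.5 h array had correlations of 0.72 and 0.84 with the 0 h array. Of the probes with neighbouring numbers, 18.2% had the same signs as Irf9 at 2, 7 and 21 h, beside 11.6% elsewhere. For Stat2 these shares were 20.5% and 14.9%. The median difference of the neighbours at 21 h was 0.06 for Irf9 and 0.05 for Stat2.

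Irf1 and Irf3 were within 2-fold of their 0 h values at every time. Irf1, an interferon-gamma target and an activator of antigen presentation genes, read 0.05 without LPS and -0.18, 0.07, 0.20 and 0.02 after it. Its largest differences from 0 h were -0.23 at 0.5 h and 0.15 at 7 h, and no neighbouring levels differed beyond the spread between probes. Among the 400 neighbours of the Irf1 probe the median difference at 0.5 h was -0.12, and their 0.5 h values had a correlation of 0.64 with those at 0 h. Irf3, which is held in the cytoplasm until phosphorylated and acts without new synthesis, read 0.23 without LPS and 0.39, 0.29, 0.33 and 0.22 after it. All 5 values lay within 0.17 of each other. Around its probe the 0.5 h array had a correlation of 0.05 with the 0 h array.

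**Figure D2:**
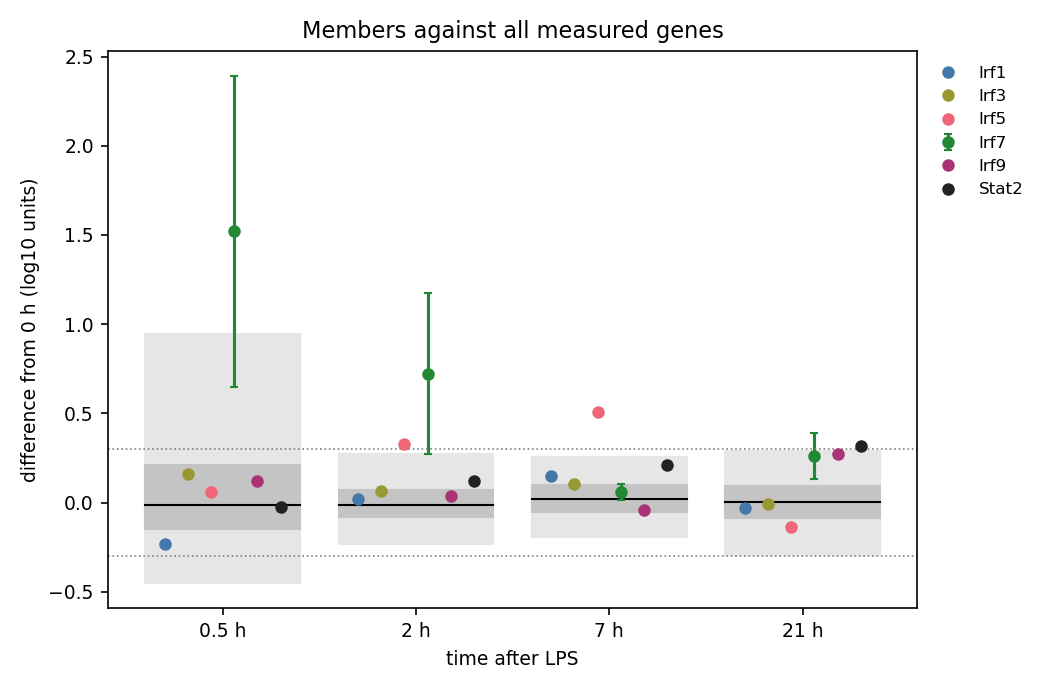
Difference from the 0 h array in log10 units (y axis) at 4 times after LPS (x axis) for the 6 members, as points; the bars on Irf7 are the SD over its 2 probes. Grey boxes hold the central 50% and 90% of 8452 genes, black lines are their medians, and dotted lines mark 2-fold. Irf7 lies above the grey boxes at 0.5 and 2 h, Irf5 at 2 and 7 h and Stat2 at 21 h.

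Over the time course 3 of 6 members were past 2-fold from 0 h at some time, Irf7, Irf5 and Stat2, and none was lower by 2-fold on this scaling, while 37.6% of all genes were past it in either direction at some time. On the 0.5 h array 1 member was higher by 2-fold, where 19.9% of all genes were higher and 10.6% lower. That member was Irf7, and after quantile normalization it was Irf5 instead, lower, while with the loess trend removed both were lower. On the 2 h array 2 members were higher (4.24% of all genes, and 2.58% lower). On the 7 h array 1 was higher (3.35%, and 1.4% lower), and on the 21 h array 1 (4.33%, and 4.69% lower). Read as base 2, the same values would leave 0 members past 2-fold at 2, 7 and 21 h. At 2 h all 6 members were above 0 h, with a median difference of 0.09 beside -0.01 for all genes. Irf3, Irf7 and Irf9 were below it when the 0.5 h array took the place of the 0 h array, at -0.10, -0.80 and -0.08. At 7 h 5 of 6 were above 0 h (median 0.13, all genes 0.02), though Irf7 was below it at -0.18 after quantile normalization and at -0.15 with the loess trend removed. At 21 h 3 of 6 were above it, Irf7, Irf9 and Stat2, with a median of 0.13 beside 0.00 for all genes; with the running median over probe numbers removed Irf1 and Irf3 were above it too, at 0.01 and 0.08. The share of all genes above 0 h by any size was not counted, so these counts of members above 0 h have no background beside them. The comparisons share the 0 h array, so its chance values enter all of them.

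The genes most alike to Irf7 in their ratios over the 5 arrays were Parp9, Ifi204 and Plekha2. The measure was the root mean square difference of the centred log ratio, 0.23, 0.23 and 0.32 in turn, and each gene had 1 probe. Parp9 and Ifi204 are both known as interferon-stimulated genes. Ifi204 read 1.06 without LPS and 2.13, 1.41, 0.97 and 1.38 after it, the same order of highest and second arrays as Irf7. Its probe, number 1610, is among the 400 neighbours of the first Irf7 probe, number 1691. Over the 4 arrays other than 0.5 h the 3 genes ranked 10th, 11th and 7th among those most alike to Irf7.

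For Irf1 the closest genes were Tmbim4, Gpd2 and Dnttip2 (0.02, 0.03 and 0.04), and for Stat2 they were Yipf3, Ppia and Tnfaip8l2 (each 0.05). Ratios near 0 are common on these arrays, so close matches are easier to find for Irf1 and Stat2 than for Irf7. Tnfaip8l2, listed last of these, was the closest to Stat2 over the 4 arrays without 0.5 h, and Ppia had 6 probes.

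**Figure D3:**
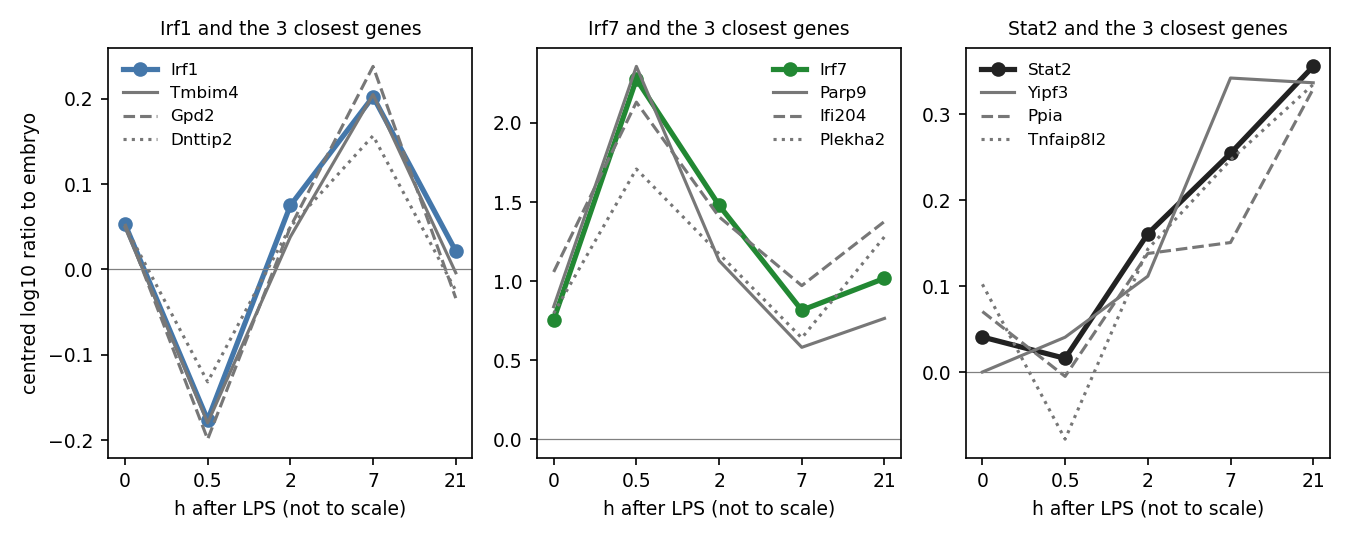
Centred log10 ratio to embryo (y axis, a separate range in each panel) on the 5 arrays (x axis, hours after LPS, not to scale) for Irf1, Irf7 and Stat2, in bold with points, and the 3 genes with the smallest root mean square difference from each, in grey. Each point is 1 array. Parp9, Ifi204 and Plekha2 are all highest at 0.5 h, as Irf7 is, and the 0.5 h array was part of the measure that picked them.

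Upstream of the factors few genes were measured. For comparison, 19.9%, 4.24%, 3.35% and 4.33% of all genes were higher by 2-fold at 0.5, 2, 7 and 21 h. The shares lower by 2-fold were 10.6%, 2.58%, 1.4% and 4.69% in the same order. Ifnar2, a chain of the type I interferon receptor, was the 1 of 17 listed receptors and was higher by 0.47 ± 0.29 on the 0.5 h array and by 0.17 ± 0.32 on the next, with the SD taken over its 3 probes. Of 3 Janus kinase and STAT5 genes none was past 2-fold until 21 h, when Jak1, the kinase shared by the interferon receptors, was higher by 0.36 ± 0.02 (SD over 2 probes). Stat5b, as a mean of 2 probes, was within 0.06 of its 0 h value at each time. At 0.5 h its probes disagreed, with an SD of 0.24 around that mean. Of 3 activators of IRF3 and IRF7, Tbk1, the kinase that phosphorylates both, was higher by 0.39 at 7 h on 1 probe. The other 2, Irak1 and Traf6, were short of 2-fold at every time as means of 2 probes. Traf6 was at 0.29 ± 0.60 at 21 h, a spread over its probes wider than the difference. Among 4 partners of the IRFs Ifi35, a protein induced by interferon, was lower by -0.79 ± 0.02 at 0.5 h and higher by 0.33 ± 0.07 at 7 h (SD over 2 probes), and Kpna1, an importin, was lower by -0.39 at 21 h.

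Of 11 negative regulators 3 were higher on the first array after LPS, none on the second and 1 each at 7 and 21 h, and 1 was lower at 21 h. Over all genes 19.9% were higher at 0.5 h, so 3 of 11 is near that share. At 2 h 4.24% of all genes were higher, at 7 h 3.35%, and at 21 h 4.33% were higher and 4.69% lower. The phosphatase SHP-1, encoded by Ptpn6, was higher by 1.35 at 0.5 h and by 0.26 at 2 h. Pias2, of the family of protein inhibitors of activated STATs, was higher by 1.32 at 0.5 h and by 0.66 at 21 h. Ptpn6 and Pias2 had 1 probe each, and their 0.5 h values were not recomputed under other scalings. Cish, a suppressor of cytokine signalling, was lower by -0.32 at 21 h. Usp18, an interferon-induced brake on its receptor, was at 0.60 above embryo at 0 h. Its difference from 0 h was -0.30 at 0.5 h, just short of 2-fold, then 0.02 at 2 h, -0.03 at 7 h and -0.10 at 21 h. Ptpn11, the phosphatase SHP-2, was higher by 0.36 ± 0.41 at 7 h, a spread over its 2 probes wider than the difference.

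Listed target genes of ISGF3 and IRF7 were already above embryo without LPS. At 0 h 10 of 13 measured were past 2-fold above it and none below, with a list median of 0.56, where 8.99% of all genes were above. Compared with 0 h, the median of this list was highest at 2 h. At 2 h 2 of 13 were higher, Oas1a (0.69), an antiviral oligoadenylate synthetase, and Ifi204 (0.35), and none lower. Over all genes 4.24% were higher and 2.58% lower at that time. The list median was 0.07 beside -0.01 for all genes. At 0.5 h 1 was higher, Ifi204 (1.07), and 4 were lower, led by Oasl2 (-1.32 ± 0.17, SD over 2 probes), on the array where Irf7 was highest, where 19.9% of all genes were higher and 10.6% lower. Of the other lower genes Ifit1 (-0.43 ± 0.44) and Rsad2 (-0.44 ± 0.73) had a spread over 2 probes wider than the difference, and Zbp1 (-0.47) had 1 probe. At 7 h none was higher and 1 lower (Eif2ak2, -0.36 ± 0.42, SD over 2 probes). Of all genes 3.35% were higher and 1.4% lower there. At 21 h Ifi204 (0.32) was higher and 4 were lower, led by Cxcl10 (-0.45), on the array where Stat2 was highest, where 4.33% of all genes were higher and 4.69% lower. Among those 4 Oasl2 (-0.36 ± 0.66) and Rsad2 (-0.38 ± 0.51) had spreads wider than the difference (SD over 2 probes). Ifit1 was at -0.32 ± 0.03 over 2 probes, and Cxcl10 had 1 probe.

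Of 7 targets of STAT3 Junb was higher by 0.40 at 2 h and Fos lower by -0.40 at 21 h, and Fos was higher by 0.34 at 0.5 h. The 5 measured targets of STAT6, the factor of the alternative program driven by interleukin-4, had list medians of -0.46, -0.15, -0.27 and -0.06 in the order of the times. At 0.5 h 1 was higher, Arg1 (0.47), and 3 were lower, Cdh1 (-0.82), Ccl24 (-0.57) and Retnla (-0.46). Ccl24, a chemokine of that program, was at -0.42 at 2 h and -0.46 at 21 h. Cdh1 was at -0.58 at 7 h and -0.31 at 21 h, and Arg1 at 0.32 at 7 h. Each of these genes had 1 probe. Against embryo at 0 h the list median was -0.04, with Ccl24 (0.37) above by 2-fold and Cdh1 (-0.53) below. Of all genes 8.99% were above and 8.9% below there. Cdh1 was below embryo on all 5 arrays. Over all genes 19.9%, 4.24%, 3.35% and 4.33% were higher in the order of the times, and 10.6%, 2.58%, 1.4% and 4.69% lower. The lists were chosen with earlier results of these data known, so their counts are descriptions.

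**Figure D4:**
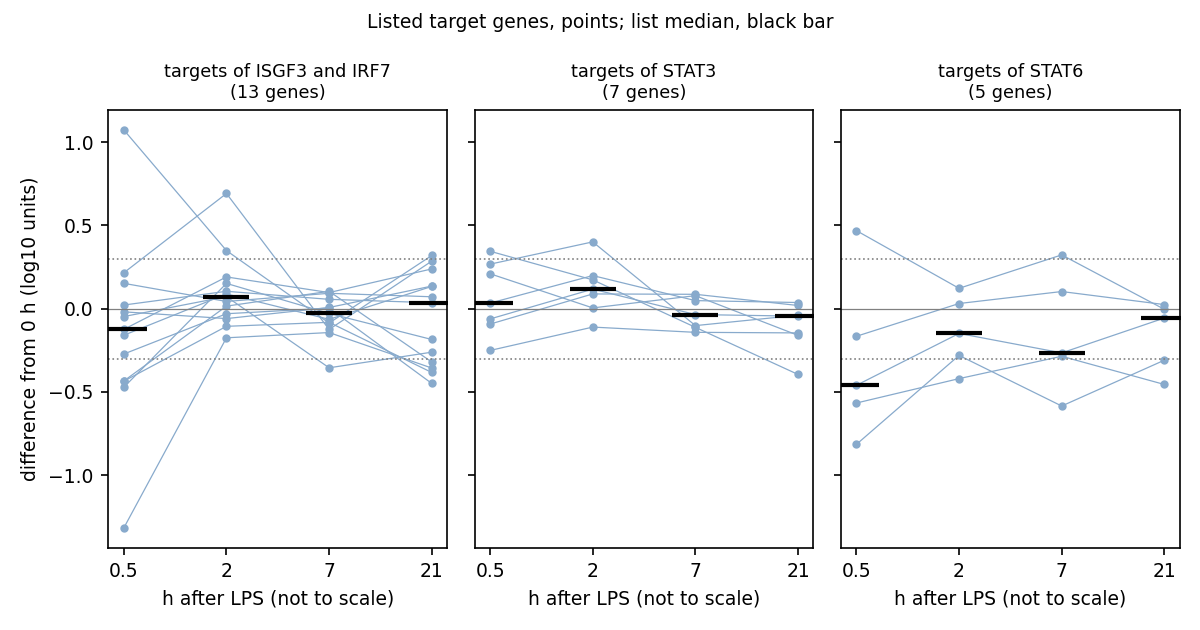
Difference from 0 h in log10 units (y axis) at 4 times after LPS (x axis, not to scale) for the measured genes of 3 target lists, as points joined by gene; black bars are list medians and dotted lines mark 2-fold. The medians of the ISGF3 and IRF7 targets lie between -0.12 and 0.07, and single genes spread most at 0.5 h.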

How the data were processed

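RNA of macrophages at 5 times was measured on 5 two-colour arrays, 1 a group. The file deposited by the authors holds 1 log ratio per probe and array, read here as log10. For scanner, normalization, centring, numerator and log base, a statement is not given in the sources used here. The base was judged from the embryo-rich globins, whose 55 probes had a deposited median of -1.46 at 0 h, and of -0.04, over 53 probes, on the 0.5 h array, which goes the other way. The deposited medians over probes were 0.04, 0.07, 0.05, 0.00 and 0.03 at 0, 0.5, 2, 7 and 21 h. Signal over background is unknown, and precision is limited by how few arrays there are. A single gene symbol was listed for 14759 of 19828 probes and several for 170, the rest being unnamed here; 14628 of the 14759 were matched by Entrez identifier to RefSeq (GRCm38.p6).

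Probes with a value on all 5 arrays were averaged by gene, and the median of the 8452 genes was subtracted on each array. A gene counted as higher or lower at 2-fold or more (0.301 in log10 units). The SD between probes is the only error these arrays allow, and it holds no spread between cultures. It was pooled over 2968 genes with at least 2 probes where a member had 1. For the steps between levels the pooled SD was used for Irf7 too, although it has 2 probes. The members and lists were chosen with earlier results of these data known. Of the lists, 1 is not reported here. All members are named; listed pathway genes were named by size past 2-fold, with examples, and Usp18, Stat5b, Irak1 and Traf6 were chosen after their values were seen. Alternatives to the centring, scaling, joining of probes, baseline, size rule and log base are given in the closing section. Steps were tested on simulated data. Python 3.11.15, numpy 2.4.6, pandas 2.3.3, statsmodels 0.14.6 and matplotlib 3.10.9 were used.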

Additional observations from a re-analysis of the deposited data

Results flagged for a closer look

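Irf5 was above the 0 h array at 2 and 7 h and below it at 21 h, the last by less than the pooled SD between probes of 0.19 and short of 2-fold. It was higher by 0.33 at 2 h and by 0.51 at 7 h, and lower by -0.14 at 21 h, so that its value at 21 h lay 0.47 under the 2 h value and 0.64 under the 7 h value. Each time is 1 array and 1 probe, and the difference between the times was not tested.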

How the results depend on the processing

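The number of members past 2-fold was recomputed under each alternative. Read as log base 2, 0 members were past it against the embryo at 0 h and 1 on each other array, and 0 compared with 0 h at 2, 7 and 21 h. A 1.5-fold rule gave 5, 4 and 5 against the embryo at 0.5, 2 and 7 h, and 2, 2 and 3 compared with 0 h at 0.5, 7 and 21 h. A 3-fold rule gave 1 against the embryo at 21 h, and 1 and 0 compared with 0 h at 2 and 21 h. With the loess trend removed 2, 1, 0 and 0 members were past 2-fold in the order of the times, and at 0.5 h Irf7 stood at -0.94, the reverse of its direction. With the 0.5 h array as baseline the numbers were 1, 3 and 2 at 2, 7 and 21 h, and Irf7 at 2 h was at -0.80. Scaling to one median absolute deviation gave 1 at 2 h and 2 at 21 h, quantile normalization 1 and 3. At 21 h the probe of highest ratio gave 2 and, an alternative added after seeing the data, the values less a running median by probe number gave 0. The causes were not tested. The remaining 70 recomputed numbers of members were within 1.5 times the reported ones, 13 of them with other members; at 0.5 h quantile normalization kept 1 member past 2-fold but put Irf5, lower, in place of Irf7, higher. Of 438 recomputed single values of members, 26 had the other sign, 17 of these by a move smaller than the spread between probes. The other 9 were Irf7 at 0.5 h and Irf5 at 0.5 h (-0.69) with the loess trend removed, Irf7 at 7 h with that trend removed (-0.15) and after quantile normalization (-0.18), and, where 0.5 h was the baseline, Irf7 at 2, 7 (-1.46) and 21 h (-1.26), Irf1 at 21 h (0.20) and Irf3 at 7 h (-0.06). No paired analysis was possible because each group held 1 array. No array could be left out as a replicate for the same reason, and a gene with 1 probe has no error of its own here.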
